A study of Mus musculus with 6 samples.

Results

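Interferon-stimulated genes are the genes a cell switches on when interferon binds its receptors. Here they are followed through choroid plexus epithelium taken from whole mouse brain. A list of 34 such genes was matched by symbol to probe sets that carry a single gene symbol, and 32 of the 34 had at least 1, on 46 of the 45037 probe sets other than controls. Isg15 and Ifi44 had none. After the dimmest 40% of probe sets were set aside, 28 of the 34 genes had a tested probe set, and Oas3, Mx1, Mx2 and Zbp1 were measured below that level.

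Type I interferons signal through the Ifnar receptor to the kinases Jak1 and Tyk2 and on to a complex that includes Stat2 and Irf9 and binds the interferon-stimulated response element, which turns on antiviral genes such as those of the Ifit, Oas and Mx families. Interferon-gamma signals through the Ifngr receptor to the gamma-activated site, and its characteristic products are the guanylate-binding proteins (Gbp) and the immunity-related GTPases such as Igtp and Irgm1, which attack or guard the membranes around intracellular microbes. The programmes overlap, and Irf1, itself induced by interferon, drives many genes of both. The choroid plexus makes cerebrospinal fluid and is a gateway for immune cells, and T cell-derived interferon-gamma is known to act on its epithelium in mice.

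Total RNA of 6 preparations was measured, each on 1 single-colour oligonucleotide array. By the sample descriptions, 3 preparations came from B10.PL mice labelled RAG-/- and 3 from WT mice of the same B10.PL strain. RAG1 and RAG2 form the recombinase of antigen receptor loci, and a mouse that has lost either one makes no mature lymphocytes of the T or B lineage. The labels give neither which of the genes was disrupted nor the age, sex or number of animals behind a preparation, and the p-values below therefore speak of the spread among preparations, part of which may be technical.

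A code in the titles joined 1 RAG-/- and 1 WT preparation into each of 3 pairs. In pair 1 the description stated a swap and contradicted the genotype in both titles, so each comparison was made by description and again by title, which turns the sign of pair 1. Replicate numbers below follow the pairs, genotypes follow the description unless a title is named, and values are given in the order of replicates 1, 2 and 3.

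Several facts of the whole series touch these genes. RAG-/- replicate 2 stood apart, with a score of 106 on the leading principal component (48.4% of the variance), against scores of -69.3 to 31.2 for the others. Rag1 and Rag2 were dim, at the 27.1 and 26.2 percentiles of probe set brightness. Rag1 stood at 4.60, 6.92 and 6.31 in RAG-/- and at 6.54, 4.16 and 4.35 in WT on the log2 scale, and Rag2 at 5.55, 4.87 and 5.99 in RAG-/- and 4.46, 4.67 and 7.14 in WT. Neither gene was lower in all RAG-/- arrays than in all WT arrays under either reading, and by title Rag1 was higher in all 3 RAG-/- arrays than in all 3 WT arrays. Where the disrupted part lies relative to the probes is not given, so these values do not check the labels. The X-inactivation transcript Xist stood at 9.04, 12.20 and 7.43 in RAG-/- and at 12.88, 12.95 and 13.19 in WT, and the Y-linked Uty at 8.14, 6.004 and 7.46 in RAG-/- and 5.61, 4.92 and 5.88 in WT, so that by description Xist was lower and Uty higher in all RAG-/- arrays than in all WT arrays. By title the groups overlapped for both genes. The part of sex in the results below was not tested.

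The regulatory letters of the class contrast are shown first. Promoter windows reaching from 250 bases before to 50 bases after the transcription start were available from RefSeq (GRCm38.p6) for 24 of the 34 genes, in 29 windows. They come from the reference strain and not from B10.PL. Each was searched on both strands for the core of the interferon-stimulated response element, GAAANNGAAA, which reads TTTCNNTTTC on the other strand, and for the gamma-activated site, TTCNNNGAA. Of the members' windows, 58.6% held the first core and 24.1% the second, against 3.44% and 8.3% of all 32851 windows. Both cores occurred together in 17.2% of the members' windows and in 0.454% of all windows. By gene, the response element core was found for 4 of the 7 Ifit and Oas genes that had a window (Ifit1, Ifit3, Oas1a and Oas3) and for 5 of the 5 Gbp, Igtp and Irgm1 genes, and the gamma site for Ifit2 and Oas1a in the one class and Gbp7 and Igtp in the other. A match describes letters and is not in itself a binding site.

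Stretches of 160 bases that end just before the start are printed below for genes of each class that hold a match, in lower case with the matched letters in capitals and read 5′ to 3′ along the gene's own strand. Positions are counted back from the start. Ifit1 (chr19:34640729-34640888, plus strand) holds response element cores at -104 to -95 and -85 to -76, and Ifit3 (chr19:34583369-34583528, plus strand) also holds a pair.
Ifit1: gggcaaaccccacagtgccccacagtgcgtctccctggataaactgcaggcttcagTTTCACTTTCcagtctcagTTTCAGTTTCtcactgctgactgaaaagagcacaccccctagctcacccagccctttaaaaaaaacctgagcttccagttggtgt
Ifit3: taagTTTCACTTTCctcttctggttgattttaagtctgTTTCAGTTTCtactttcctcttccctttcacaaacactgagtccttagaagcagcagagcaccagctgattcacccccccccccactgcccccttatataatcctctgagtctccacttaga
For the interferon-gamma responsive GTPases, Gbp2 (chr3:142620503-142620662, plus strand) holds a response element core at -59 to -50. Gbp7 (chr3:142530176-142530335, plus strand) holds gamma sites at -106 to -98 and -87 to -79 upstream of a response element core at -53 to -44.
Gbp2: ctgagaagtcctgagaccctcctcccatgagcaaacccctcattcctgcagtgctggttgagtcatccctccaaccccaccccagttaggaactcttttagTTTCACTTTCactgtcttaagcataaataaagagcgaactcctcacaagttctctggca
Gbp7: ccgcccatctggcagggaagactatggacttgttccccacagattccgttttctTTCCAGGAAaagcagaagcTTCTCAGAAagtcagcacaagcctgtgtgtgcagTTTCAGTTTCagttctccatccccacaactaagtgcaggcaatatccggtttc
Igtp (chr11:58199396-58199555, plus strand) holds a gamma site at -45 to -37 next to a response element core at -34 to -25, and Irgm1 (chr11:48871421-48871580, minus strand) holds overlapping response element cores at -30 to -21 and -24 to -15.
Igtp: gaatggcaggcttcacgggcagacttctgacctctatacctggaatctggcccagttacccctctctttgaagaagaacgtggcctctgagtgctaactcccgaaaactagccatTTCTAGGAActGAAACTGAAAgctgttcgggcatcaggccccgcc
Irgm1: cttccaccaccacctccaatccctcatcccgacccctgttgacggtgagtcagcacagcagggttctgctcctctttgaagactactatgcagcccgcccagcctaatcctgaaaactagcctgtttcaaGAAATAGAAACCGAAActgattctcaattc
The first of 2 Irf1 windows (chr11:53769854-53770013, plus strand) holds a gamma site at -90 to -82 and no response element core.
Irf1: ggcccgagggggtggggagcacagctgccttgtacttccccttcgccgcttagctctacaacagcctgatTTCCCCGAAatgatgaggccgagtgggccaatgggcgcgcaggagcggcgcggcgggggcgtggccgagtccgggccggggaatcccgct
In these letters the response element core was common to both classes, and the gamma site stood in only part of the GTPase promoters.

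Levels are given below as log2(intensity + 16) after quantile normalization, and a percentile is the rank of a probe set's mean brightness among the 45037. Brightness also depends on the probe, so a percentile places a probe set and does not order transcripts by abundance. Ligand genes were dim. Ifng, which encodes interferon-gamma, lay at the 9.32 percentile, and Ifna4 at 1.11, Ifna1 at 37.4, Ifnb1 at 41.2 and Ifna2 at 42.8, so that 2 of the 5 ligand genes on the array, Ifnb1 and Ifna2, passed the filter. The receptors were brighter, with Ifnar1 at the 73.3, Ifnar2 at the 88.7, Ifngr1 at the 72.6 and Ifngr2 at the 61.8 percentile. Of 16 receptor, kinase and signalling genes on the array, 15 were tested and 0 passed the limma threshold of an adjusted p under 0.05 by description or by title.

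Among them Il10rb, a shared chain of the receptors for interferon-lambda and interleukin-10, stood at 10.40, 9.47 and 10.52 in RAG-/- and at 11.08, 11.04 and 10.63 in WT. It was the 1 of the 15 whose RAG-/- arrays all lay below the WT arrays, against 1.41% of all genes, with a difference of -0.79 on the mean, and the limma adjusted p with the pair as a block was 0.999562. By title the groups overlapped and the difference was -0.33. Ifnlr1, the chain particular to interferon-lambda, stood at 7.20, 7.25 and 7.89 in RAG-/- and 6.77, 6.84 and 7.17 in WT, a difference of 0.52. It was the 1 of the 15 with all RAG-/- arrays above all WT arrays by description, by a small margin, against 1.69% of all genes. By title its groups overlapped and the difference was 0.23.

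The members themselves covered a wide range of brightness. Ifi27, a small interferon-inducible membrane protein, was at the 99.4 percentile and Ifitm3, which blocks viral entry at the endosome, at the 94.9. The cytoplasmic sensor of long double-stranded RNA, Ifih1, was at the 88.9, Igtp at the 85.7 and Rtp4, an interferon-induced chaperone of membrane receptors, at the 83.4 percentile. At the dim end lay Mx2 at the 11.6, Oas3 at the 18.1, the Z-form nucleic acid sensor Zbp1 at the 24.7 and Mx1 at the 38.2 percentile.

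By class, the 5 Gbp, Igtp and Irgm1 probe sets had percentiles between 68.3 and 85.7 with a median of 70.3, and all passed the filter. The 10 Ifit, Oas and Mx probe sets ran between 11.6 and 80.6 with a median of 60.7, and the 7 past the filter had a median of 65.3. Over the 13537 genes past the filter the median was 77.1. The brightest of the type I class was Ifit3, and all 3 genes of that class below the filter belonged to the Oas and Mx families.

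**Figure D1:**
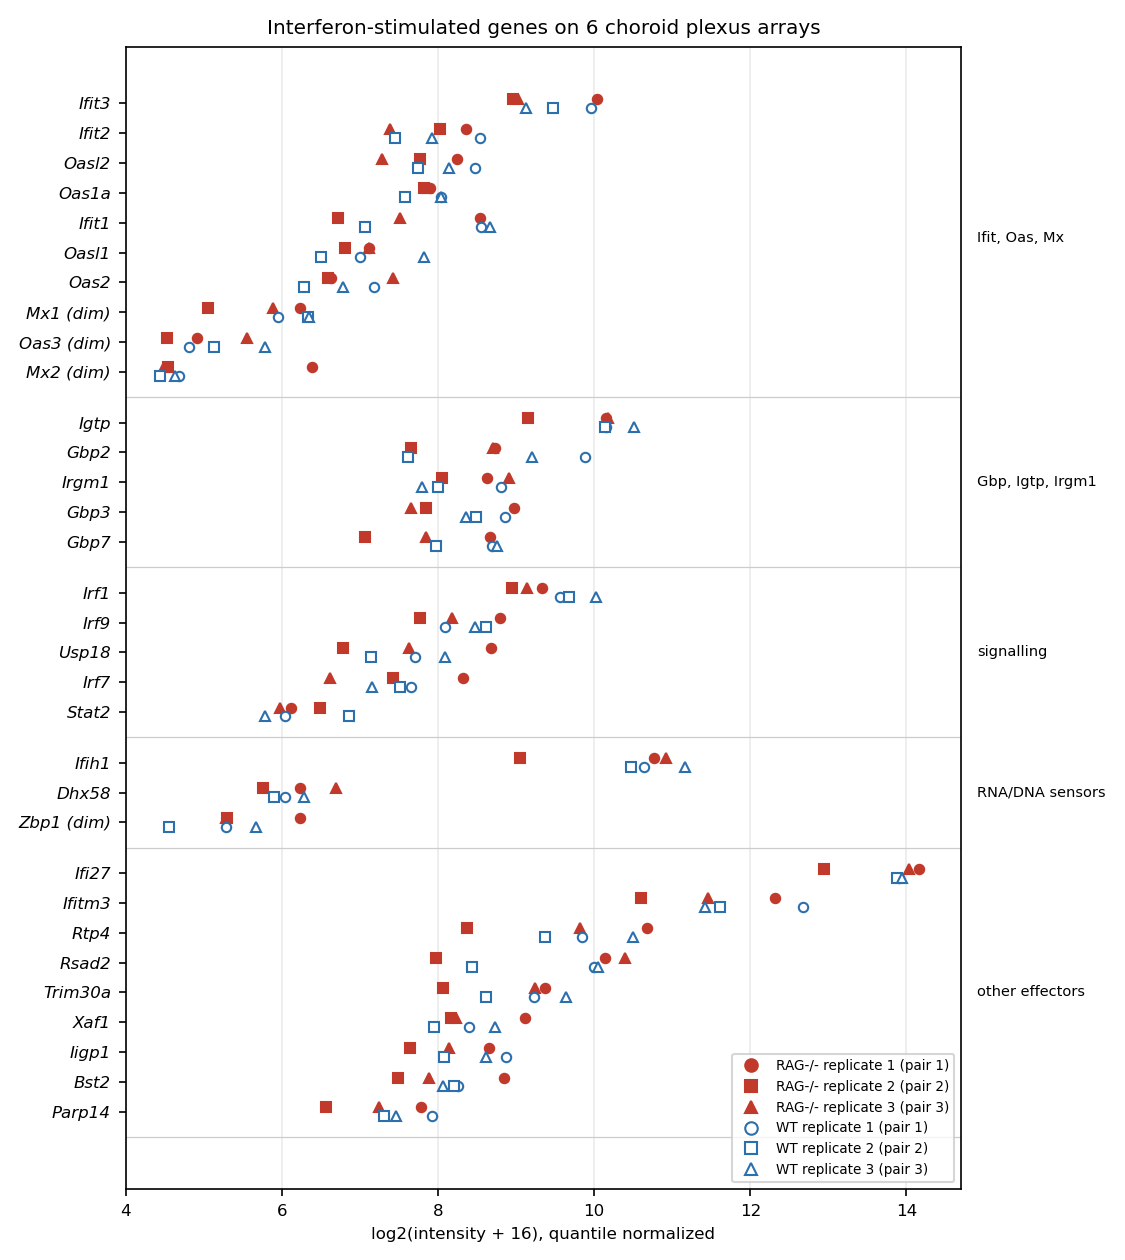
Level of the brightest probe set of each of 32 interferon-stimulated genes on each array, as log2(intensity + 16) after quantile normalization, with filled red symbols for RAG-/- and open blue symbols for WT and 1 symbol shape per pair. Genes are grouped by class, those below the filter are marked as dim, and RAG-/- and WT symbols overlap for nearly every gene, with Irf1 the tested gene whose RAG-/- arrays all lie below its WT arrays.

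Across the 28 tested genes, 0 passed the threshold in any of 4 limma fits. The fit by description called 0% of 27022 probe sets, with 192 at an unadjusted p under 0.05 and 0 of the members among them. The fit by title called 0%, with 332 at an unadjusted p under 0.05 and again 0 members. With the pair as a block, the fit by description called 0% and that by title 0.0037%, a single probe set of Pttg1, named here because it was the one called. In these limma fits with the block, 636 probe sets (2.35%) by description and 1118 (4.14%) by title had an unadjusted p under 0.05. Among the 28 members these were Irf1 by description and Rtp4 and Irf9 by title. The smallest limma adjusted p of a member was 1 by description, 0.999936 by title, 0.999562 by description with the block and 0.925837 by title with the block.

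Without a call for any gene, the direction of the members was described by counts. On the mean, 21 of the 28 tested members were lower in RAG-/- by description, against 51.1% of all 13537 genes, and 22 of 28 by title, against 53.9%. The median difference, RAG-/- minus WT, was -0.19 by description and -0.30 by title on the log2 scale, against -0.01 and -0.02 over all genes. Without RAG-/- replicate 2 the count by description was 13 of 28 with a median of 0.01, and by title, a setting chosen after the data were seen, 17 of 28 with a median of -0.06. The median by description was -0.50 when RAG-/- replicate 1 was set aside and -0.43 when WT replicate 2 was. The size and the direction of the median thus changed with single arrays.

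The regulators of the response came next to the receptors in the pathway. Irf1 was the tested member whose RAG-/- arrays all lay below its WT arrays by description. It stood at 9.34, 8.95 and 9.14 in RAG-/- and at 9.56, 9.67 and 10.02 in WT. The groups did not overlap, but the gap between the highest RAG-/- and the lowest WT array, both of pair 1, was small. The difference was -0.61 (SE 0.29) with an unadjusted limma p of 0.066 and an adjusted p of 1, and with the pair as a block the unadjusted p was 0.0421 and the adjusted p 0.999562. It was lower in RAG-/- in each pair, by -0.23, -0.72 and -0.88, and was -0.51 without RAG-/- replicate 2. By title the groups overlapped and the difference was -0.46. A single member of 28 without overlap in the lower direction compares with 1.41% of all genes, and 0 of 28 in the higher direction with 1.69%.

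Irf9, the DNA-binding partner of Stat2, depended on the reading of the labels. It stood at 8.79, 7.78 and 8.18 in RAG-/- and at 8.09, 8.61 and 8.48 in WT by description, where the groups overlapped and the difference was -0.14. By title its RAG-/- arrays averaged 8.02 ± 0.21 and its WT arrays 8.63 ± 0.16 (SD, n = 3 each), without overlap, a difference of -0.61 (SE 0.28, limma adjusted p = 0.999936). Irf9 was the 1 of 28 tested members without overlap in the lower direction by title, against 2.53% of all genes, while 0 of 28 and 2.2% of all genes were without overlap in the higher direction. With array weights, or without RAG-/- replicate 2, the difference of Irf9 by description was 0.22 or 0.10, the opposite sign.

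The other regulators varied more within groups than between them. Irf7, which amplifies interferon-alpha production, stood at 8.32, 7.42 and 6.62 in RAG-/- and 7.66, 7.51 and 7.15 in WT. Usp18, the protease that removes Isg15 from proteins and restrains the Ifnar receptor, stood at 8.68, 6.78 and 7.63 in RAG-/- and 7.71, 7.15 and 8.09 in WT. Their differences by description were 0.01 and 0.05, with RAG-/- replicate 1 the highest array of both, and by title they were -0.43 and -0.60. Stat2 was dim, at the 43.0 percentile, with 6.12, 6.48 and 5.98 in RAG-/- against 6.04, 6.86 and 5.78 in WT, and both pair 2 arrays were its highest.

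The sensors were split by brightness. Ifih1 stood at 10.76, 9.05 and 10.92 in RAG-/- and at 10.64, 10.47 and 11.17 in WT, so that a single low array, RAG-/- replicate 2, set the mean difference of -0.51. Without that array the difference was 0.08. Dhx58, a regulator of RNA sensing related to Ifih1, stood at 6.24, 5.76 and 6.70 in RAG-/- and 6.04, 5.90 and 6.29 in WT, and the difference was 0.16 at this probe set and -0.46 and 0.11 at 2 dimmer ones below the filter. Zbp1 was below the filter on both of its probe sets.

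In the type I class, 6 of 7 tested genes were lower by description, against 51.1% of all genes. By title 4 of 7 were, against 53.9%, and the medians were -0.09 and -0.17. Ifit1, which binds viral RNA ends that lack host-type methylation, stood at 8.54, 6.72 and 7.51 in RAG-/- and at 8.55, 7.07 and 8.67 in WT. The arrays of pair 1 were nearly equal, in pair 3 the RAG-/- array was lower by -1.16, and both arrays of pair 2 were low. Its partner Ifit3 stood at 10.04, 8.96 and 9.02 in RAG-/- and 9.96, 9.48 and 9.12 in WT, with both pair 1 arrays above the other 4. Ifit2, which also binds RNA, stood at 8.36, 8.02 and 7.38 in RAG-/- and 8.54, 7.45 and 7.92 in WT and differed by -0.05. Within the pairs Ifit2 differed by -0.18, 0.58 and -0.54, so that its small mean difference came from pair differences of either sign.

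The oligoadenylate synthetases make the messenger that activates RNase L on sensing double-stranded RNA. Oas1a was the steadiest member, at 7.90, 7.82 and 7.87 in RAG-/- and 8.04, 7.58 and 8.04 in WT, a difference of -0.02. Oas2 stood at 6.63, 6.60 and 7.42 in RAG-/- and 7.18, 6.28 and 6.78 in WT, and its difference was 0.14 by description and 0.50 by title. Oasl2, an Oas-like protein, stood at 8.24, 7.77 and 7.28 in RAG-/- and 8.47, 7.74 and 8.14 in WT, and Oasl1, which represses Irf7 translation, at 7.12, 6.81 and 7.12 in RAG-/- and 7.002, 6.51 and 7.82 in WT. Their differences by description were -0.36 and -0.09, within the spread of either group. The dynamin-like antiviral GTPases Mx1 and Mx2 were below the filter and were not tested. Mx1 stood at 6.24, 5.06 and 5.89 in RAG-/- and 5.95, 6.33 and 6.34 in WT, and by title, where pair 1 changes places, all its RAG-/- values lay below its WT values. Mx2 lay between 4.44 and 4.68 in every array except RAG-/- replicate 1, where it was 6.39.

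In the class of interferon-gamma responsive GTPases, 4 of 5 were lower by description, against 51.1% of all genes. By title 3 of 5 were, against 53.9%, and the median was -0.44 under both readings. Igtp, an immunity-related GTPase that regulates its relatives on membranes, stood at 10.15, 9.15 and 10.18 in RAG-/- and at 10.16, 10.14 and 10.51 in WT. RAG-/- replicate 2 was its one low array, and the other 5 lay between 10.14 and 10.51. Gbp7 stood at 8.66, 7.07 and 7.85 in RAG-/- and 8.70, 7.98 and 8.76 in WT, the largest difference of the class by description at -0.62 (SE 0.45, limma adjusted p = 1). Its RAG-/- array was lower in every pair by description, with a difference in pair 1 of -0.03.

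Gbp2, a guanylate-binding protein that coats microbial vacuoles, stood at 8.73, 7.65 and 8.71 in RAG-/- and at 9.88, 7.62 and 9.20 in WT. Both pair 2 arrays were its lowest at this probe set, while at a dimmer one RAG-/- replicate 3 was the lowest, at 6.87. WT replicate 1 was the highest array of Gbp2, and the difference changed sign with the reading of the labels. It was -0.54 by description and 0.23 by title. Gbp3 stood at 8.97, 7.84 and 7.66 in RAG-/- and 8.86, 8.49 and 8.36 in WT, a difference of -0.41 by description and -0.48 by title. Irgm1, a regulatory GTPase of autophagy and vacuole defence, went the other way, at 8.63, 8.05 and 8.91 in RAG-/- and 8.81, 8.002 and 7.79 in WT. Its difference was 0.33 by description and 0.45 by title, set by pair 3, where RAG-/- was higher by 1.12. Gbp genes are close paralogs, and cross-hybridisation between them was not tested.

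Set side by side, the class medians lay close in pair 3 and had opposite signs in pair 2. The medians of the type I class in pairs 1, 2 and 3 were -0.14, 0.24 and -0.54, with 5, 2 and 6 of 7 genes lower in RAG-/-. Those of the GTPases were -0.03, -0.65 and -0.49, with 4, 3 and 4 of 5 lower. In pair 2, which holds the outlying RAG-/- replicate 2, the GTPases were split. Gbp3, Gbp7 and Igtp differed there by -0.65, -0.91 and -0.99, and Gbp2 and Irgm1 by 0.03 and 0.05. In the type I class Ifit1 and Ifit3 were also lower in that pair, by -0.35 and -0.52. For all 28 tested members, 13, 20 and 21 were lower in the 3 pairs, against 46.9%, 52.5% and 53.4% of all genes. The class medians rested on single arrays. The type I median was 0.04 without WT replicate 1, -0.0044 without RAG-/- replicate 2, -0.27 when RAG-/- replicate 1 was left out and -0.31 when WT replicate 2 was. The GTPase median was -0.19 without RAG-/- replicate 2, -0.27 without WT replicate 1 and -0.72 without RAG-/- replicate 1. No test of the difference between the classes was made.

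**Figure D2:**
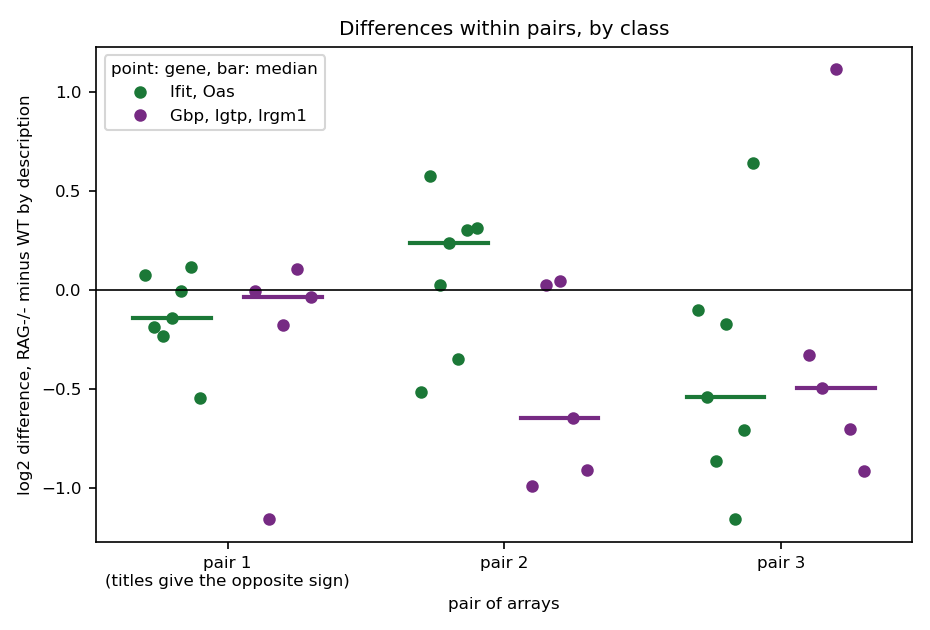
Difference within each pair of arrays, RAG-/- minus WT by description on the log2 scale, for the 7 tested Ifit and Oas genes and the 5 Gbp, Igtp and Irgm1 genes, with a point per gene and a bar at the class median. The medians of the Ifit and Oas genes are -0.14, 0.24 and -0.54 and those of the GTPases -0.03, -0.65 and -0.49 in pairs 1, 2 and 3, and the titles would turn the sign of pair 1.

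Of the 9 tested genes among the remaining effectors, 8 had their lowest value in RAG-/- replicate 2, against 31.2% of all genes. Rsad2, viperin, which makes a chain-terminating nucleotide, stood at 10.13, 7.97 and 10.40 in RAG-/- and at 10.001, 8.44 and 10.04 in WT. Both pair 2 arrays were far below the other 4, and the difference between the genotypes was 0.01 (SE 0.70). The spread at this probe set thus lay between pairs. At dimmer probe sets of Rsad2 the pair 2 arrays did not both lie below the rest. At one, WT replicate 2 was at 6.862 and WT replicate 3 at 6.861. At another, RAG-/- replicate 1 was at 5.74 and RAG-/- replicate 2 at 5.86. Rtp4 stood at 10.68, 8.37 and 9.82 in RAG-/- and 9.84, 9.37 and 10.50 in WT. Its difference was -0.28 by description and -0.84 by title, and by title with the block the unadjusted limma p was 0.00522 and the adjusted p 0.925837. By description its sign turned to 0.35 without RAG-/- replicate 2, to 0.33 with array weights and to 0.02 without WT replicate 3.

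Ifi27 stood at 14.16, 12.94 and 14.04 in RAG-/- and at 13.91, 13.87 and 13.94 in WT. At this probe set 5 arrays lay close together and RAG-/- replicate 2 was low. A second probe set of Ifi27 past the filter stood at 13.77, 12.36 and 12.87 in RAG-/- and 13.31, 13.40 and 12.81 in WT. There RAG-/- replicate 2 was again the lowest, but both pair 3 arrays lay below those of pair 1 and WT replicate 2. Ifitm3 stood at 12.32, 10.61 and 11.46 in RAG-/- and 12.68, 11.61 and 11.41 in WT, with both pair 1 arrays the highest. Bst2, tetherin, which holds budding virus at the cell surface, stood at 8.84, 7.49 and 7.88 in RAG-/- and 8.26, 8.20 and 8.07 in WT, the RAG-/- arrays lying on both sides of a tight WT group. Their differences by description were -0.20, -0.44 and -0.11. Trim30a, a TRIM family protein, Parp14, a mono-ADP-ribosyltransferase, and Xaf1, a partner of the apoptosis inhibitor Xiap, differed by -0.26, -0.37 and 0.14.

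Iigp1, an immunity-related GTPase of the effector kind, stood at 8.65, 7.65 and 8.14 in RAG-/- and 8.88, 8.07 and 8.62 in WT. It differed by -0.38, and with it counted among the GTPases the class median was -0.43. Its second probe set went the opposite way, at 0.10, as did a dim second probe set of Parp14. Where a gene had several probe sets, those of Gbp2, Gbp7, Stat2, Ifi27, Rtp4, Trim30a and Xaf1 had the same sign by description, and those of Rsad2 were 0.01, -0.38 and -0.24.

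**Figure D3:**
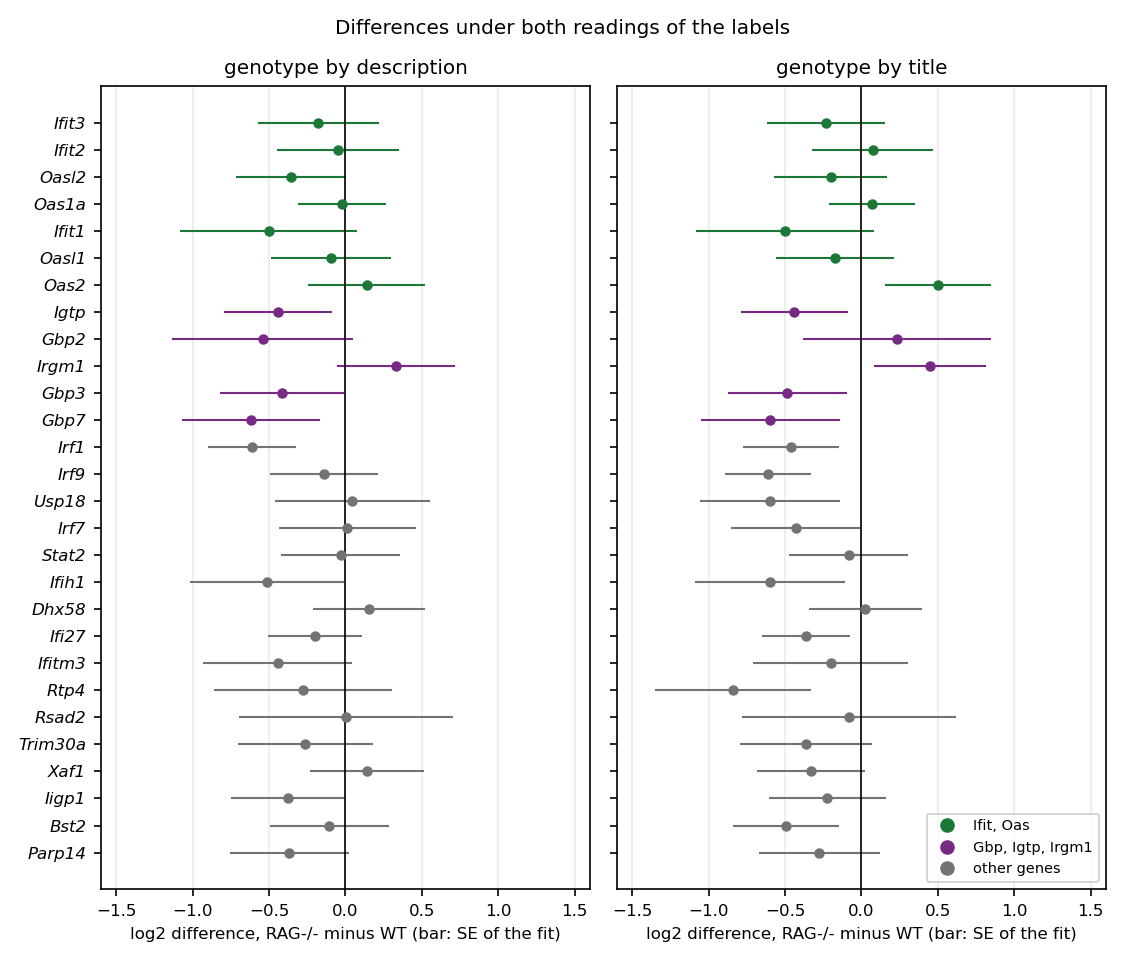
Difference, RAG-/- minus WT on the log2 scale, of the 28 tested interferon-stimulated genes with the genotype taken from the description (left) and from the title (right), where bars are the SE of the limma fit. Irf1 lies at -0.61 by description and Irf9 and Rtp4 at -0.61 and -0.84 by title, and no gene passed the threshold in either panel.

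Counting genes that moved the same way in all pairs gave different members under each reading. By description 6 of 28 were lower in RAG-/- in all 3 pairs (Gbp7, Ifit1, Igtp, Iigp1, Irf1 and Parp14), against 11.3% of all genes, and 0 were higher in all 3, against 9.75%. By title 9 of 28 were lower in all 3 pairs (Bst2, Gbp3, Ifih1, Ifit3, Irf7, Irf9, Rtp4, Trim30a and Usp18), against 15% of all genes, and Irgm1 and Oas2 were higher in all 3, against 10.6%. Because the readings differ by the sign of pair 1, no gene can be in both lists. Of the genes listed by description, Ifit1, Igtp and Gbp7 had pair 1 differences between -0.03 and -0.00321, near 0.

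Many members followed pair 1 or pair 2. For 15 of the 28 tested members both arrays of pair 2, RAG-/- and WT, lay below the other 4, where 17% of all genes did so. They were Dhx58, Gbp2, Ifi27, Ifih1, Ifit1, Igtp, Iigp1, Oas1a, Oas2, Oasl1, Rsad2, Rtp4, Trim30a, Usp18 and Xaf1, which hold 4 of the 7 type I genes and 2 of the 5 GTPases. These counts rest on the brightest probe set of each gene. At other probe sets of Dhx58, Gbp2, Ifi27, Rsad2, Rtp4, Trim30a and Xaf1 the pair 2 arrays did not both lie lowest, while at that of Iigp1 they did. The rest of the 15 had a single probe set. For Igtp the margin was small, with WT replicate 2 at 10.14 and RAG-/- replicate 1 at 10.15. For 9 members both arrays of pair 1 lay above the other 4, against 8.75% of all genes, namely Bst2, Gbp3, Ifit2, Ifit3, Ifitm3, Iigp1, Irf7, Oasl2 and Parp14. Stat2 was the single tested member with both pair 2 arrays at the top, against 13% of all genes. Both pair 1 arrays lay below the other 4 for 0 members, against 8.14%. For pair 3, 3 members (Dhx58, Ifih1 and Igtp) had both arrays above the other 4, against 21.4% of all genes. Irf7 and Stat2, 2 members, had both pair 3 arrays below, against 17%.

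Extremes were unevenly spread over the arrays. RAG-/- replicate 2 held the lowest value of 17 of the 28 members, against 31.2% of all genes, and the highest value of 0, against 25.4%. It held the lowest of 2 of 7 type I genes, 2 of 5 GTPases and 8 of 9 other effectors. In it 26 of the 28 lay below their own mean over the 6 arrays, against 52.8% of all genes. In WT replicate 2 of the same pair 19 did, against 51.4%. In RAG-/- replicate 1 and WT replicate 1 the numbers were 3 and 5, against 47.8% and 50.9% of all genes. In RAG-/- replicate 3 and WT replicate 3 they were 17 and 9, against 47.1% and 46.1%. The pairs share a code in the titles, whose meaning the labels do not give.

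**Figure D4:**
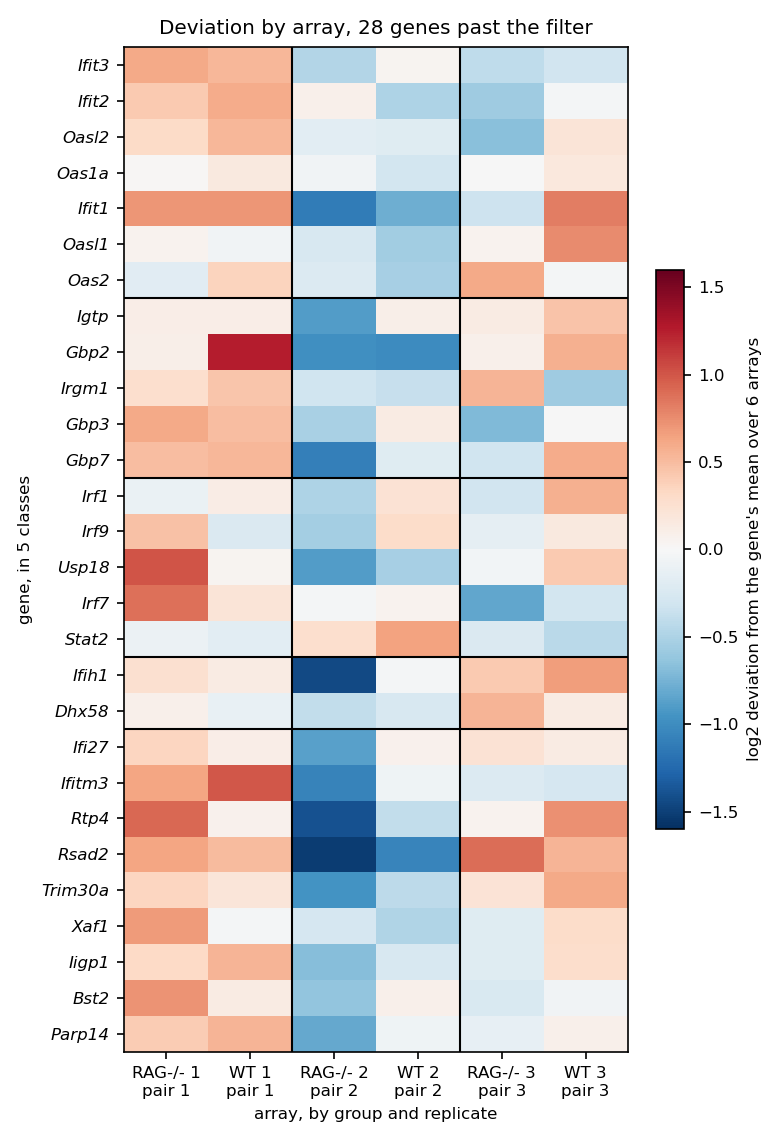
Deviation of each of the 28 tested interferon-stimulated genes from its own mean over the 6 arrays on the log2 scale, with arrays ordered by pair, RAG-/- left of WT, and genes by class. Both columns of pair 1 are mostly red and RAG-/- replicate 2 mostly blue, with 26 of 28 genes below their mean there. At the brightest probe sets of Rsad2 and Gbp2, those shown, both columns of pair 2 are blue.

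A wider list of interferon-stimulated genes was described by the same counts. Of 48 further genes, 40 were on the array and 33 were tested, of which 0 passed the limma threshold in either direction by description or by title. By description 25 of the 33 were lower in RAG-/-, against 51.1% of all genes, with a median of -0.28, and by title 23, against 53.9%, with a median of -0.25. Both pair 2 arrays lay below the other 4 for 18 of the 33, against 17% of all genes, including the chemokine gene Cxcl10, the GTPase genes Gbp6 and Irgm2 and the peptide transporter gene Tap1. The median deviation of this list was 0.32, -0.91 and 0.18 in RAG-/- and 0.37, -0.31 and 0.32 in WT, and that of the 28 tested members 0.38, -0.59 and -0.14 in RAG-/- and 0.21, -0.23 and 0.18 in WT. RAG-/- replicate 2 was the lowest array of both lists, and RAG-/- replicate 3 was above 0 for the wider list and below 0 for the members.

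Markers of cell types that a choroid plexus preparation can hold moved with some of these arrays. The median deviation of the type I class was 0.30, -0.22 and -0.33 in RAG-/- and 0.53, -0.50 and 0.16 in WT, and that of the GTPases 0.27, -0.90 and 0.08 in RAG-/- and 0.50, -0.19 and 0.46 in WT. For the 14 tested of 15 macrophage and microglia markers it was 0.71, -0.33 and -0.33 in RAG-/- and 0.998, -0.62 and -0.12 in WT, so both pair 1 arrays were the highest for these markers, as for the type I class, while for the GTPases WT replicate 3 lay above RAG-/- replicate 1. The summed deposited intensity of all 15 markers ran between 6207 and 11920 in RAG-/- and between 4336 and 14444 in WT. The pan-leukocyte gene Ptprc stood at 9.11, 7.30 and 8.05 in RAG-/- and 9.67, 7.62 and 8.57 in WT.

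In RAG-/- replicate 2 the median deviation of the 10 epithelium markers on the array was the lowest of the 6 arrays, at -0.77, and that of the 8 neuron markers the highest, at 1.91. The summed intensity of the epithelium markers ran between 89345 and 175554 in RAG-/- and between 142214 and 167781 in WT, and that of the neuron markers between 8340 and 64913 in RAG-/- and between 13961 and 38387 in WT. Of the 10 epithelium markers, 10 were lower in RAG-/- by description, against 51.1% of all genes, and 9 by title, against 53.9%. Their medians were -0.17 and -0.41. By description their medians in pairs 1, 2 and 3 were 0.16, -1.04 and 0.06. RAG-/- replicate 2 held the lowest value of all 10. All 7 fibroblast markers were lower in RAG-/- under both readings, against 51.1% and 53.9% of all genes, with medians of -1.08 by description and -0.43 by title. All RAG-/- arrays lay below all WT arrays for 5 of the 7 by description, against 1.41% of all genes, and for 0 by title, against 2.53%. By description their summed intensity was between 6948 and 14709 in RAG-/- and between 20818 and 31391 in WT. By title the arrays with 14709 and 31391 change places, and the sums of the groups overlap.

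Of 8 endothelium markers, 7 were tested, and 7 of these were lower in RAG-/- by description, against 51.1% of all genes. By title 6 were, against 53.9%, and the medians were -0.51 and -0.14. The summed intensity of all 8 ran between 2101 and 4222 in RAG-/- and between 3307 and 7214 in WT. The 6 tested oligodendrocyte markers were higher in RAG-/- on the mean under both readings, where 51.1% and 53.9% of all genes were lower. Their medians were 0.93 by description and 1.19 by title. In pair 1 by description, 5 of the 6 were lower in RAG-/-, with a median of -0.44. Of the 6 markers, 1 by description and 4 by title had all RAG-/- arrays above all WT arrays, against 1.69% and 2.2% of all genes. In the limma fits 0 of the 6 passed the threshold. An unadjusted p under 0.05 was found for 2 by description and 6 by title, against 0.711% and 1.23% of all tested probe sets. Their summed intensity ran between 31300 and 68939 in RAG-/- and between 31187 and 37299 in WT. For the 6 astrocyte markers 2 were lower by description, against 51.1% of all genes, and 1 by title, against 53.9%. The medians were 0.16 and 0.65, and the sums ran between 7579 and 22974 in RAG-/- and between 7155 and 18349 in WT.

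Of 18 markers of T, B and NK cells, 14 were on the array and 2, Cd8a and Pax5, passed the filter. The summed intensity of the 14 ran between 581 and 689 in RAG-/- and between 547 and 661 in WT, and Cd3d was at the 1.90 percentile. The part of macrophages, stroma, endothelium, neurons, glia or epithelial share in the differences of the interferon-stimulated genes was not tested, and in these bulk samples fewer cells of a type and less RNA per cell cannot be told apart.

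**Figure D5:**
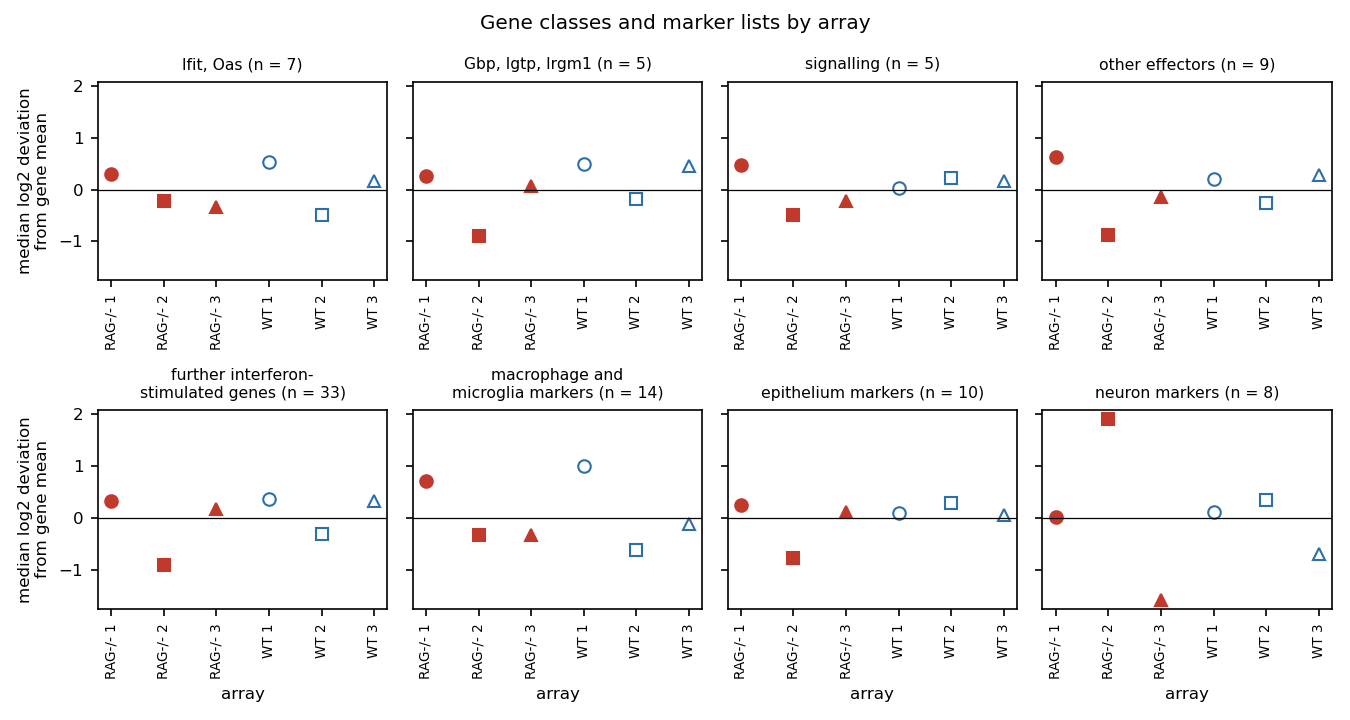
Median log2 deviation from the gene's own mean over the 6 arrays, for 4 classes of interferon-stimulated genes, a list of 33 further ones, and markers of macrophages and microglia, epithelium and neurons, with filled red symbols for RAG-/- and open blue symbols for WT. Pair 1 lies highest for macrophage and microglia markers (0.71 and 0.998), and RAG-/- replicate 2 lies lowest for epithelium markers (-0.77) and highest for neuron markers (1.91).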

How the data were processed

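Total RNA of 6 choroid plexus epithelium preparations was hybridised to 1 single-colour array each. The deposited values are linear intensities per probe set; which software and normalization gave them is not given in the sources used here. All 6 arrays had nearly the same mean after the extreme 2% of probe sets at each end were set aside, so the deposited intensity had been scaled array by array. The number of arrays limits the precision.

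Control probe sets (64) were left out, and values were taken as log2(intensity + 16) and quantile normalized. The pseudocount understates the change of dim probe sets. Probe sets in the lowest 40% of mean brightness were left out of the tests, which left 27022. In the platform annotation 34945 probe sets had 1 gene symbol, 932 several and 9160 were unnamed here, and 34741 of the first matched a RefSeq gene number (GRCm38.p6). The brightest probe set stood for a gene.

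Differences, RAG-/- minus WT, were tested two-sided with limma 3.58.1 (lmFit, eBayes with trend) in R 4.3.3, Benjamini-Hochberg adjusted over all 27022, at a threshold of 0.05. The fit by description was tested on simulated arrays with independent noise. It recovered 6% of log2 differences of 1, 50% of those of 2 and 100% of those of 3 and 4. It also called 10 unchanged probe sets. Lists were described by counts and medians, with no test over a list. The members, classes and lists were chosen with earlier results of these data known. All members were named, with the ligands, receptors, kinases and any gene past the threshold. Other genes were chosen after their values were seen, among them Xist, Uty, Rag1, Rag2 and those named from the wider list.

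The code shared by titles pairs the samples. Residuals around the group means by description had correlations of 0.29, 0.39 and 0.58 within pairs and between -0.42 and 0.01 across pairs. The residuals of a group cancel out, so the values across pairs are not independent of those within pairs. Fits with the pair as a block were made too. Other alternatives were the scaling, pseudocount, filter, probe set rule, array weights, left-out arrays and a left-out pair.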

Additional observations from a re-analysis of the deposited data

How the results depend on the processing

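With genotype by title and the pair as a replicate block, 1 probe set (Pttg1, difference 3.23, limma adjusted p = 0.012) passed, in place of 0. The replicate block by description left the count at 0 (limma, with 636 probe sets at an unadjusted p under 0.05). Each pair holds 1 array of each genotype, so the block cannot change a difference, and the other summaries were the same by design. Leaving out 1 array at a time gave between 0 and 4 called probe sets, a type I median between -0.31 and 0.04, a GTPase median between -0.72 and -0.19, a median over all tested members between -0.50 and 0.01 and between 13 and 24 of 28 members lower in RAG-/-. The 4 calls and the 13 of 28 came without RAG-/- replicate 2. Among the 4 calls, Xist was the one with a single gene symbol (difference -4.78, limma adjusted p = 0.0449). The cause was not tested. With array weights 16 of 28 were lower, and the medians were -0.05, -0.20 and -0.05. Values as deposited, a common median, other pseudocounts, other filters and the mean over probe sets kept the 3 medians negative, and 0 members were called in any setting (smallest limma adjusted p 0.926). The design of 3 against 3 arrays limits detection to large differences, and dim probe sets such as those of the Mx genes and the interferon genes carry little signal over background.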
